A study of Homo sapiens with 55 samples.

Results

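COASY encodes coenzyme A synthase, and 5 splicing events of this gene were followed through 44 RNA-seq libraries of human cell lines. They are all the events that lay wholly within a window around the gene on the plus strand of chromosome 17, out of 110816 events with coordinates, and their splice sites run from 40714237 to 40717248 (hg19). All 5 events were matched to COASY by their intron lengths in GENCODE 29.

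The cells were K562, an established leukemia line, and 293T, a line from human embryonic kidney. Guides targeted SUGP1 or GPATCH8, and the control guide targeted Renilla luciferase (sgRenilla), which human cells lack. In the SF3B1 panel, K562 cells with the K700E mutation knocked in were set beside wild-type (WT) cells, with 2 sgSUGP1, 2 sgGPATCH8 and 1 sgRenilla library in each genotype, so that the control of each genotype was a single library. The SRSF2 panel had K562 cells overexpressing SRSF2 P95H or SRSF2 WT, and the U2AF1 panel had K562 cells overexpressing U2AF1 S34F or U2AF1 WT, each with sgGPATCH8 and sgRenilla and 3 libraries per group. The 293T panel had no mutation and held 4 sgSUGP1 libraries, 4 sgGPATCH8 libraries and 2 sgRenilla libraries. In the SF3B1 panel the libraries of a target carried different guides, and these were the same in both genotypes. In 293T each of 2 guides per target had 2 libraries. The labels do not say whether libraries came from separate cultures or whether lines were single clones, so p-values measure the spread between these libraries, which may be technical. The deposited values are isoform fractions without read counts or gene levels. The depth behind a fraction is therefore unknown, and neither the loss of SUGP1 and GPATCH8 nor markers of the lines were checked.

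Coenzyme A carries acyl groups in fatty acid oxidation, the citric acid cycle and lipid synthesis, and is built from pantothenate. COASY is a bifunctional enzyme that carries out the last pair of steps, in which it adds the adenylyl group to phosphopantetheine and then phosphorylates dephospho-coenzyme A. Inherited COASY mutations cause a form of neurodegeneration with brain iron accumulation. SF3B1 is the subunit of the U2 snRNP that helps to choose the branch point and 3' splice site, and K700E is a frequent change of this protein in myelodysplastic syndromes. SUGP1 and GPATCH8 both have a G-patch domain, a motif that activates DEAH-box helicases, and binding of SUGP1 to SF3B1 is weakened by K700E.

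Of the 5 events, 4 lie at the 5' end of the gene and share junctions with each other, so they are not independent readings. Inclusion of exon 2 is named by the path from exon 1 to exon 2, set against the path from exon 1 straight to exon 3. Exon 2 spans 40714374 to 40714505 on chromosome 17 (hg19) and is 132 nt long. The event called the exon 2 acceptor set 3 acceptors against each other after exon 1: that of exon 2 (intron of 136 nt), that of exon 3 (392 nt) and one inside exon 3 (713 nt). The third event was splicing of the 124 nt intron after exon 2, against its retention. The fourth compared, after exon 2, the acceptor of exon 3 with the one inside exon 3, which leaves out the first 321 nt of that exon. The fifth lay downstream, at 2 acceptors of exon 7 that are 3 nt apart. Each value is the percentage of the isoform listed first: the exon 2 acceptor, inclusion, splicing, or the upstream acceptor. Inclusion lay below use of the exon 2 acceptor in every group, as at 9% against 43% in SF3B1 WT sgRenilla. A share of the 2 named junctions alone could not be the lower one, so inclusion values are not plain shares of exon 2 use and skipping. What else enters them is not known.

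**Figure D1:**
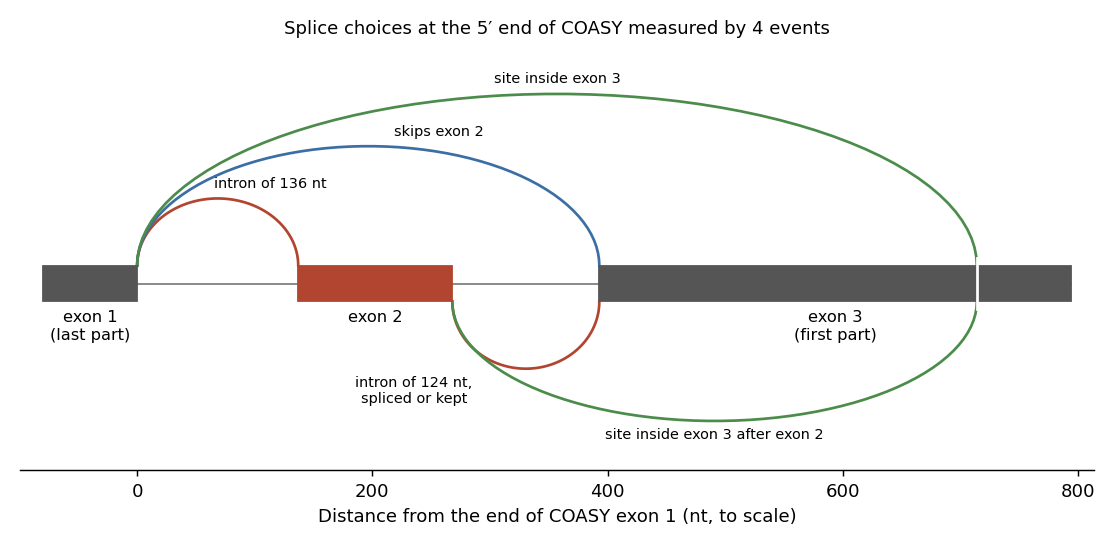
Splice choices measured at the 5' end of COASY, drawn to scale as distance in nt from the end of exon 1. Boxes are exons, with exons 1 and 3 drawn in part, and arcs are introns; red arcs use exon 2, the blue arc skips it and green arcs end at the site inside exon 3.

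The sites that decide whether exon 2 is used are given here with their surroundings, as read from GENCODE 29 transcripts that cover them (GRCh38, chromosome 17, plus strand). For each acceptor the last 24 intron bases are in lower case and the first 6 exon bases in capitals, and for each donor the last 9 exon bases are in capitals.
acceptor of exon 2: cctgtgacaagggttcctgtccagTTTCCC
acceptor of exon 3: cctcgtctccctgactgtccgcagGCCTGG
acceptor inside exon 3: ttctccctcccctgcccacctcagTCCAGA
donor of exon 1: GAGGTTTCAgtgagtaggggg
donor of exon 2: CTCCTGTCGgtcagcactgaa
All 3 introns end in AG. The last 20 intron bases held 10 pyrimidines before exon 2, 13 before exon 3 and 16 before the site inside exon 3. In the last 60 intron bases, the acceptor of exon 2 had 6 further AG dinucleotides upstream of its own, the nearest 13 nt away. The acceptor of exon 3 had 2, the nearest 33 nt away, and the site inside exon 3 had 2, the nearest 29 nt away.

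Inclusion and skipping of exon 2 give mRNAs that differ at the following junctions, with the downstream exon in capitals.
exon 1 to exon 2: agccttgaggtttcaTTTCCCCCTCCCAGG
exon 1 to exon 3: agccttgaggtttcaGCCTGGGCAGCATGG
exon 2 to exon 3: ccccggctcctgtcgGCCTGGGCAGCATGG
In the annotated transcript without exon 2 (COASY-202) translation starts in exon 3, 11 bases after the exon begins. In the annotated transcript with exon 2 (COASY-211) an upstream ATG lies 56 bases into exon 2, and the remaining 76 bases of the exon are coding. From that ATG to the start codon in exon 3 there are 87 nt, or 29 codons in frame with 0 stop codons, so the annotated proteins have 593 codons with exon 2 and 564 without it. The added coding stretch is shown with its ATG in capitals. It is what exon 2 adds to the reading frame where the intron after exon 2 is spliced out. By its own event, that intron was spliced at 1% to 20% in the 44 libraries.
extension coded by exon 2 and the start of exon 3: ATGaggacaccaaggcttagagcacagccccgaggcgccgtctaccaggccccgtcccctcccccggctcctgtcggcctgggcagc
A longer COASY protein with an N-terminal extension is known mainly from brain. No protein was measured here.

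Among the COASY events, inclusion of exon 2 had a wider range of group means than any other, and its levels fell into separate sets. In 11 of the 44 libraries it was 33% or more, and in the other 33 libraries 16% or less, with none between. The 11 were all the libraries of 5 groups: K700E with each of the 3 kinds of guide, SF3B1 WT with sgSUGP1, and 293T with sgSUGP1. The order of the group means was 46.25% in K700E sgGPATCH8 and in SF3B1 WT sgSUGP1, 41% in K700E sgRenilla, 40% in K700E sgSUGP1 and 36.75% in 293T sgSUGP1, and the library values of neighbouring groups in that order overlapped or lay within 5 points. SRSF2 P95H sgGPATCH8 followed at 15.3%, and the remaining 11 groups averaged 6.25% to 10%, with overlapping libraries. Levels in different panels came from separate tables and were not tested against each other.

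**Figure D2:**
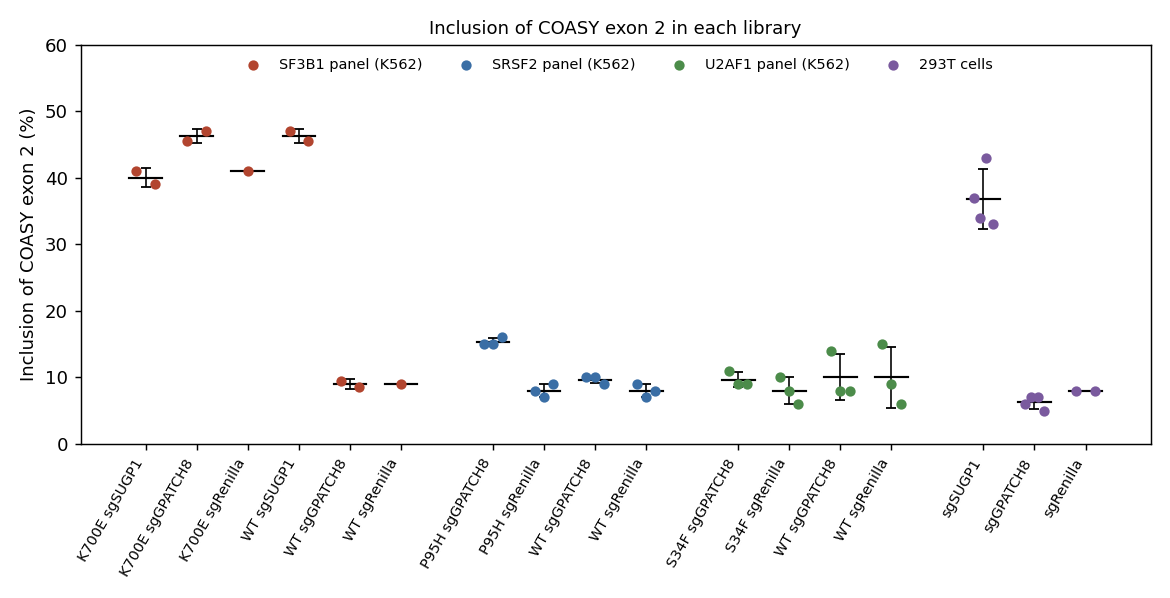
Inclusion of COASY exon 2 (percent, y axis) in each of 44 libraries (points) of 17 groups; bars are group means and error bars SD where a group has more than 1 library. The K700E groups and the sgSUGP1 groups lie between 33% and 47%, and all other groups lie between 5% and 16%.

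The first question was what the K700E mutation does to COASY with each guide. With the control guide, inclusion of exon 2 was 41% in the K700E library and 9% in the WT library. The difference was 32 points, with 1 library on each side. It was 2.69 ± 0.24 (SE) on the log2 ratio of the inclusion fraction to the remainder. Its adjusted p was 0.0806 (limma, Benjamini-Hochberg over 50823 events), which is not past the threshold of 0.05. By unadjusted p it ranked 15 in that comparison, and it shared the lowest adjusted p with other events. No COASY event was called there and 0% of all tested events were, although 6582 events had an unadjusted p under 0.05 in limma. A call needed an adjusted p under 0.05 and a difference of at least 5 points. The spread for these single libraries was borrowed from the other groups of the panel.

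With sgGPATCH8, inclusion was 45.5% and 47% in K700E cells and 9.5% and 8.5% in WT cells. The groups did not overlap, and inclusion rose by 37.25 points, or 2.99 ± 0.17 on the log2 ratio (SE, adjusted p 0.0141, limma). Here 2 of the 3 COASY events that could be tested were called, against 0.681% of all tested events. Over the other settings, single runs among them, the difference ran from 29.5 to 45 points. It was 36.5 to 38 points over the fits without 1 library, where only leaving out a library of these groups could change it. The call held in 4 of 10 such fits. The call was lost without either K700E sgGPATCH8 library, either WT sgGPATCH8 library or either K700E sgSUGP1 library. Each of those fits left a group with 1 library, and calls were lost over all events, so the loss is not particular to COASY.

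With sgSUGP1, inclusion was 41% and 39% in K700E cells and 47% and 45.5% in WT cells. This difference of -6.25 points was not called (adjusted p 0.343, limma; -0.36 ± 0.17 on the log2 ratio), and no COASY event was, against 0.197% of all tested events. Averaged over the 3 kinds of guide, inclusion rose by 21 points in K700E (1.77 ± 0.11 on the log2 ratio, adjusted p 0.00713, limma). The call held in all 8 fits that left out a library and in 7 of 8 other settings (adjusted p up to 0.0771). No fit could leave out a sgRenilla library, as each was the only one of its group. In that average 2 of 3 COASY events were called, against 3.35% of all tested events. The average joins differences of 32 and 37.25 points with one of -6.25 points.

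The exon 2 acceptor event, which names the same junction against both sites of exon 3, had higher values and gave a similar order. With the control guide its use was 76% in the K700E library and 43% in the WT library (33 points, adjusted p 0.138, limma, not called). With sgGPATCH8 it was 76.5% and 79% in K700E cells and 43.5% and 44.5% in WT cells. That rise of 33.75 points was called (2.10 ± 0.25 on the log2 ratio, adjusted p 0.0364), although the call held in 2 of 10 fits without 1 library. With sgSUGP1 it was 80.5% and 73.5% in K700E cells and 76.5% and 74.5% in WT cells, and these overlapped. The rise averaged over guides was 22.75 points (1.42 ± 0.17, adjusted p 0.0179), and its call held in 1 of 8 fits without 1 library, with adjusted p from 0.0441 to 0.0585.

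Splicing of the intron after exon 2 was low in every SF3B1 panel library. It was 14.5% and 17% in K700E sgSUGP1, 16% and 15.5% in K700E sgGPATCH8, 15% in K700E sgRenilla, 17% and 18% in WT sgSUGP1, 16.5% and 13% in WT sgGPATCH8, and 20% in WT sgRenilla. No difference in it was called in this panel. In the control library of this panel, the median over 4608 retained-intron events was 84.5%, so this intron lay well below the middle of its event type.

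The second question was what loss of SUGP1 or GPATCH8 does in WT and in K700E cells. In WT cells inclusion of exon 2 was 47% and 45.5% with sgSUGP1, against 9% with sgRenilla. It rose by 37.25 points (2.99 ± 0.21 on the log2 ratio, adjusted p 0.0476, limma), and by unadjusted p it ranked 3 among 50823 events. In this comparison 1 of 3 COASY events was called, against 0.0197% of all tested events. The difference was 36.5 to 38 points over 9 fits without 1 library, and only leaving out a WT sgSUGP1 library could change it. No fit could leave out the single WT sgRenilla library, on which the difference rests. The call held in 1 of the 9 fits, that without the K700E sgRenilla library.

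Against sgGPATCH8, which gave 9.5% and 8.5%, the rise with sgSUGP1 in WT cells was also 37.25 points (adjusted p 0.00961, limma). The call held in 4 of 10 fits without 1 library and was lost without any library of either group or of K700E sgSUGP1 (up to 0.105). There 2 of 3 COASY events were called, against 0.449% of all tested events. The other was the exon 2 acceptor, at 76.5% and 74.5% with sgSUGP1 and 43.5% and 44.5% with sgGPATCH8 (31.5 points, 1.93 ± 0.25, adjusted p 0.0481), a call that held in 2 of 10 such fits. Both comparisons of this panel use the same sgSUGP1 libraries.

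In K700E cells, where inclusion was already high, sgSUGP1 gave 41% and 39%, against 41% with sgRenilla. The difference was -1 point (-0.06 ± 0.21 on the log2 ratio, adjusted p 0.95, limma). No COASY event was called for sgSUGP1 against sgRenilla in K700E cells, against 0.0944% of all tested events, nor for sgSUGP1 against sgGPATCH8, against 0.466%. Whether the change with sgSUGP1 differed between K700E and WT cells was tested as an interaction, which was -38.25 points (-3.05 ± 0.29 on the log2 ratio) with an adjusted p of 0.125. It was not called, nor was any event in that test (0%), although 4713 events had an unadjusted p under 0.05. Over the alternatives that kept every library, the adjusted p of this interaction ran from 0.0175 to 0.584 (limma). It was not called in any of the 8 fits without 1 library, with sizes of -39.25 to -37.25 points. Its size was -21 points with run 1 alone and -55.5 points with run 2 alone.

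GPATCH8 guides gave no called COASY event in this panel. In K700E cells inclusion was 45.5% and 47% with sgGPATCH8, against 41% with sgRenilla (5.25 points, 0.30 ± 0.21 on the log2 ratio, adjusted p 0.692, limma). In WT cells it was 9.5% and 8.5% with sgGPATCH8, against 9% with sgRenilla (0 points, 0.00 ± 0.21). The shares of all tested events called were 0.0138% in K700E cells, 0.0059% in WT cells and 0.0295% for the interaction, in which inclusion of exon 2 had an adjusted p of 0.835.

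Each SF3B1 panel library had been sequenced in 2 runs, and both measures of exon 2 differed between them. Inclusion was higher in run 2 than in run 1 in 9 of 10 libraries, by a median of 13 points (range -4 to 24). Use of the exon 2 acceptor was higher in run 2 in 8 of 10 libraries, by a median of 11.5 points (-5 to 21). Over all skipped-exon events and over all alternative acceptor events the median difference between runs was 0 points. That median is signed and does not show how far single events moved, so how unusual the COASY shift was is not known. The K700E sgSUGP1 libraries differed little between runs, with inclusion of 42% in run 2 and 40% in run 1 for the first and 37% and 41% for the second. In contrast the WT sgSUGP1 libraries had 59% in run 2 and 35% in run 1, and 55% and 36%. The run's part in the results was not tested. Sizes also moved over the settings that kept every library, single runs among them. The rise in inclusion in K700E ran from 26 to 38 points with sgRenilla and from 29.5 to 45 with sgGPATCH8. The rise with sgSUGP1 over sgRenilla in WT cells ran from 30.5 to 44 points. With run 1 alone, the difference between K700E and WT with sgSUGP1 was 5 points (adjusted p 0.739, limma), and with run 2 alone it was -17.5 points (adjusted p 0.106), against -6.25 with both.

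**Figure D3:**
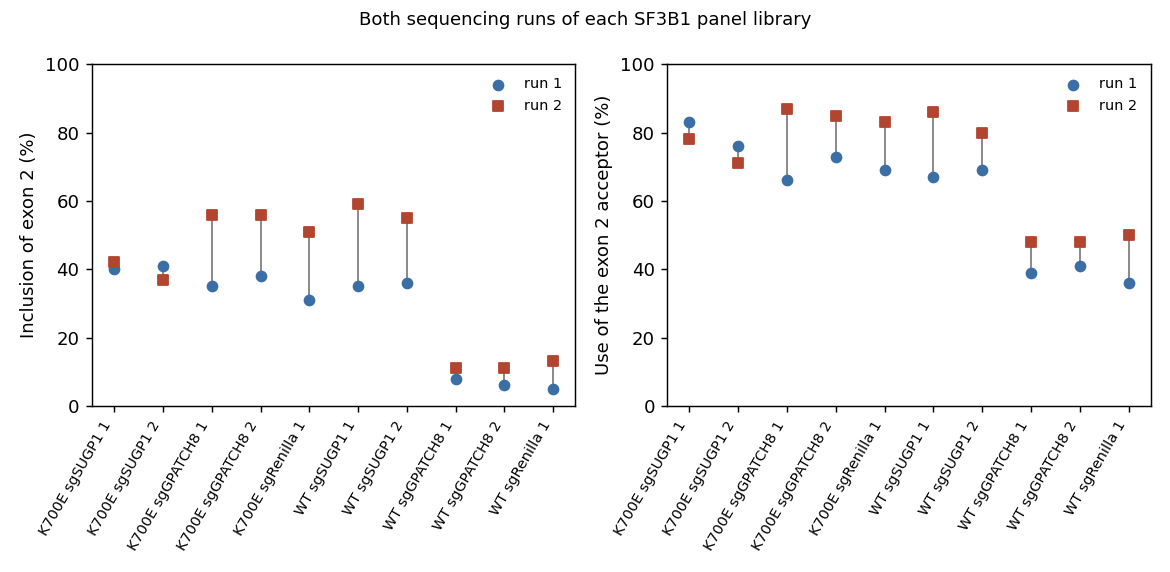
Inclusion of exon 2 (left) and use of its acceptor (right), in percent, in run 1 (blue circles) and run 2 (red squares) of each of the 10 SF3B1 panel libraries, joined by lines. Run 2 lies above run 1 in 9 libraries on the left and 8 on the right, and in both runs the WT sgGPATCH8 and WT sgRenilla libraries are the lowest.

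In 293T cells the question was what the same guides do in another line. Inclusion of exon 2 was 37%, 43%, 34% and 33% with sgSUGP1, 6%, 7%, 7% and 5% with sgGPATCH8, and 8% and 8% with sgRenilla. All 4 sgSUGP1 libraries lay above all others. The rise with sgSUGP1 over sgRenilla was 28.75 points (2.60 ± 0.23 on the log2 ratio, adjusted p 0.0314, limma over 49031 events), and 1 of 3 COASY events was called, against 0.0428% of all tested events.

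That call was lost in each of the 10 fits that left out 1 library (adjusted p 0.0687 to 0.296), with differences of 27.25 to 30.25 points. Against sgGPATCH8 the rise with sgSUGP1 was 30.5 points (2.95 ± 0.19, adjusted p 0.00224), and it was called in all 10 such fits. There 1 of 3 COASY events was called, against 0.679% of all tested events. By guide, sgSUGP1 guide 3 gave 37% and 43%, and guide 4 gave 34% and 33%. The p-values in 293T rest on the spread within a guide and leave out differences between guides.

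The other COASY events in 293T were not called. Use of the exon 2 acceptor was 79%, 82%, 69% and 74% with sgSUGP1, 62%, 61%, 63% and 52% with sgGPATCH8, and 55% and 58% with sgRenilla. The sgSUGP1 libraries all lay above the others, with a difference of 19.5 points from sgRenilla (adjusted p 0.338, limma) and of 16.5 points from sgGPATCH8 (adjusted p 0.104). Splicing of the intron after exon 2 was 9%, 10%, 14% and 11% with sgSUGP1, 4%, 4%, 4% and 6% with sgGPATCH8, and 7% and 6% with sgRenilla. Its differences were 4.5 points from sgRenilla (adjusted p 0.605) and 6.5 points from sgGPATCH8 (adjusted p 0.0612). GPATCH8 guides against sgRenilla gave no called COASY event, against 0.0673% of all tested events, with -1.75 points for inclusion (-0.35 ± 0.23 on the log2 ratio, adjusted p 0.765).

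In the SRSF2 panel inclusion of exon 2 was higher in 1 of 4 groups, which still lay in the lower set of libraries, at 16% or less. It was 15%, 15% and 16% in P95H sgGPATCH8, 8%, 7% and 9% in P95H sgRenilla, 10%, 10% and 9% in WT sgGPATCH8, and 9%, 7% and 8% in WT sgRenilla. The P95H sgGPATCH8 libraries did not overlap with any other group. Within P95H cells, inclusion rose by 7.33 points with sgGPATCH8 over sgRenilla (0.98 ± 0.15 on the log2 ratio, adjusted p 0.00617, limma over 43963 events). In this comparison 1 of 3 COASY events was called, against 4.84% of all tested events. The call held in all 12 fits that left out 1 library (0.00859 to 0.0272).

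With sgGPATCH8, inclusion rose by 5.67 points in P95H over WT cells (0.71 ± 0.15, adjusted p 0.0284), and this call held in 6 of 12 such fits, being lost without any library of either group (up to 0.0879). There 2 of 3 COASY events were called, against 4.06% of all tested events. The other was splicing of the intron after exon 2, at 10%, 10% and 14% in P95H sgGPATCH8 and 7%, 6% and 4% in WT sgGPATCH8. It rose by 5.67 points (0.99 ± 0.24, adjusted p 0.0479), a call that held in 1 of 12 such fits, with adjusted p up to 0.131. Compared with P95H sgRenilla, at 6%, 6% and 7%, its difference of 5 points was not called (adjusted p 0.0835).

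Neither factor alone gave a called COASY event. With sgRenilla, inclusion averaged 8% ± 1 in P95H and 8% ± 1 in WT cells (SD, n = 3 each), and no COASY event was called, against 1.08% of all tested events. In WT cells, sgGPATCH8 against sgRenilla gave 1.67 points (0.28 ± 0.15 on the log2 ratio, adjusted p 0.551, limma), against 0.491% of all tested events called. The interaction of P95H and sgGPATCH8 was 5.67 points for inclusion (0.71 ± 0.21, adjusted p 0.233) and was not called, against 0.0614% of all tested events. Use of the exon 2 acceptor was 65% to 73% in P95H sgGPATCH8, 65% to 67% in P95H sgRenilla, 67% to 69% in WT sgGPATCH8 and 67% to 73% in WT sgRenilla, with overlap throughout. Inclusion of exon 2 was thus called in P95H sgGPATCH8 while use of its acceptor was not.

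In the U2AF1 panel no COASY event was called. Of 15 tests 0 had an unadjusted p under 0.05, with adjusted p of 0.858 or more (limma over 43468 events). The shares of all tested events called were 0.0023% for S34F against WT with sgRenilla, 0.023% with sgGPATCH8, 0.0345% for sgGPATCH8 against sgRenilla in S34F cells, 0.0322% in WT cells and 0% for the interaction, in which 1911 events had an unadjusted p under 0.05. Same-numbered libraries deviated together in the groups of 2 of these comparisons. With the replicate number as a block, 15 events in place of 1 were called for S34F against WT with sgRenilla, and 25 in place of 14 for sgGPATCH8 against sgRenilla in WT cells, with 0 COASY events in either. Inclusion of exon 2 was 11%, 9% and 9% in S34F sgGPATCH8, 10%, 8% and 6% in S34F sgRenilla, 14%, 8% and 8% in WT sgGPATCH8, and 15%, 9% and 6% in WT sgRenilla. In all 4 groups the library numbered replicate 1 was the highest. The largest difference of any COASY event was -4.67 points, in use of the exon 2 acceptor, which was 77%, 65% and 69% in S34F sgGPATCH8 and 75%, 73% and 77% in S34F sgRenilla. Splicing of the intron after exon 2 was 1% to 7% in these 12 libraries.

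**Figure D4:**
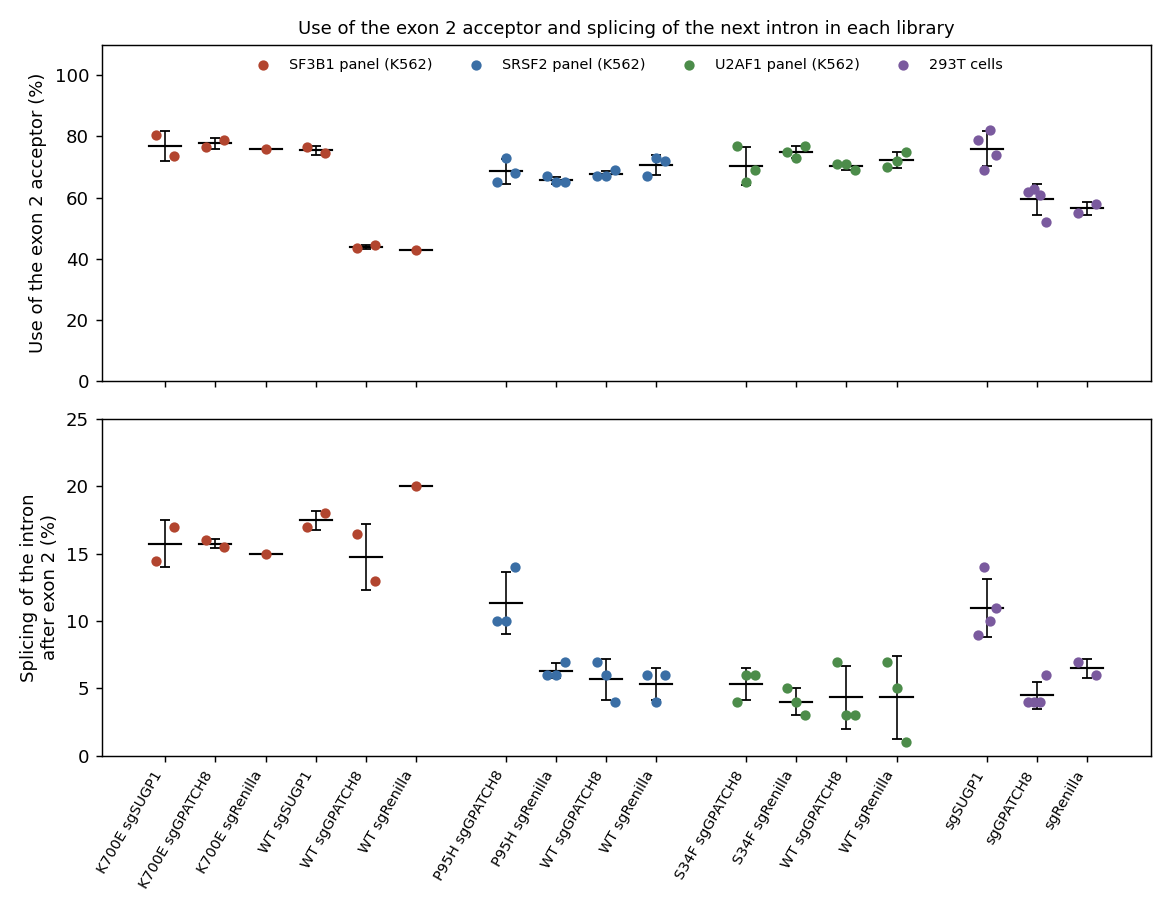
Use of the exon 2 acceptor (top) and splicing of the intron after exon 2 (bottom), in percent, in each of 44 libraries (points) of 17 groups; bars are group means and error bars SD where a group has more than 1 library. In the SF3B1 panel the WT sgGPATCH8 and WT sgRenilla libraries lie at 43% to 44.5% in the top plot, and in the bottom plot all SF3B1 panel libraries lie at 13% to 20%.

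Control levels set side by side, without a test, differed between panels for the acceptor more than for inclusion. With sgRenilla and no mutation, use of the exon 2 acceptor was 43% in the single SF3B1 WT library, 70.7% ± 3.21 with SRSF2 WT and 72.3% ± 2.52 with U2AF1 WT (SD, n = 3 each), and 55% and 58% in 293T cells. The 43% is the mean of 36% in run 1 and 50% in run 2. In the same groups inclusion was 9%, 8% ± 1, 10% ± 4.58, and 8% in both 293T libraries. Splicing of the intron after exon 2 averaged 20%, 5.33%, 4.33% and 6.5% in the same order. The first 3 of these panels are all K562 cells, and the panel cannot be told apart from the way its cells were made.

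The other COASY acceptor choices were nearly fixed. After exon 2, the acceptor of exon 3 was used at 97.5% to 100% in all 44 libraries, and the site inside exon 3 took the rest. At exon 7 the upstream acceptor was used at 95% to 99%. The event of exon 7 adds or omits a single codon, shown in capitals in its junction because it is all that separates the isoforms.
exon 6 to exon 7: gtgtttgggaataagAAGcagctgaagata
The downstream acceptor of exon 7 is in 0 of 14 annotated COASY transcripts, and the upstream one follows exon 6 in 4. Neither event had a group mean at or below 95%, so neither was tested, and the tests above cover 3 of 5 COASY events in every panel.

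Other genes of coenzyme A synthesis and turnover gave few called events. Of 17 genes in the list, 15 had an event with a matched name, and 56 events in 12 genes were tested in the SF3B1 panel. Of these, 0 were called higher and 1 lower in K700E averaged over guides (1.79%, against 3.35% of all tested events), and their median difference was -0.25 points, against 0.33 for all tested events. The event was an acceptor of VNN2, a pantetheinase that recycles pantothenate, which fell by 11.75 points (adjusted p 0.0435, limma). Its means were 18.5% ± 2.83, 39% ± 4.24 and 23.5% in K700E with sgSUGP1, sgGPATCH8 and sgRenilla, and 42.5% ± 2.12, 37.25% ± 1.06 and 36.5% in WT with the same guides (SD, n = 2 where given, otherwise 1 library). In the other SF3B1 panel comparisons none of the 56 events was called, and at most 0.681% of all tested events were.

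In P95H against WT cells with sgGPATCH8, 3 of 41 tested events of this list were higher and 0 lower (7.32%, against 4.06% of all tested events). They were in SLC5A6, a pantothenate and biotin transporter of the cell surface, PANK2, a mitochondrial pantothenate kinase, and SLC25A16, a mitochondrial carrier. An alternative donor of PANK2 was used at 47.3% ± 3.79 in P95H sgGPATCH8 and 36% ± 1.73 in WT sgGPATCH8 (SD, n = 3 each; 11.3 points, adjusted p 0.0344, limma). In P95H cells, sgGPATCH8 against sgRenilla gave 1 higher and 2 lower events of 41 (7.32%, against 4.84% of all tested events), namely the same PANK2 event (14 points, adjusted p 0.0126), NUDT8, known in mouse as a mitochondrial hydrolase of coenzyme A (-5.33 points, adjusted p 0.0203), and PANK1, another pantothenate kinase (-7.67 points, adjusted p 0.0435). None was called in the U2AF1 panel (36 events), where at most 0.0345% of all tested events were, or in 293T (41 events), where at most 0.679% were.

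Genes next to COASY on chromosome 17 (NAGLU, HSD17B1, MLX, PSMC3IP and TUBG1) had 13 tested events in each panel. Of these, 1 was called in any comparison: a donor of PSMC3IP, a cofactor of meiotic recombination, fell by 17 points in P95H against WT cells with sgGPATCH8, to 60% ± 3 in P95H, against 77% ± 0 in WT (SD, n = 3 each; adjusted p 0.0188, limma). That is 7.69% of the 13 events, against 4.06% of all tested events. With sgRenilla the same donor was used at 65.3% ± 4.73 in P95H and 77.7% ± 4.04 in WT cells (SD, n = 3 each), a difference that was not called.

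The events whose pattern was most like inclusion of COASY exon 2 were acceptor choices of DVL2, PGBD1, BRD9, RBM18 and BUB1B. Likeness was Pearson's r over the means of 17 groups, among 13845 named events with a range of at least 20 points, and is a description. It was -0.985 for DVL2, 0.983 for PGBD1, 0.979 for BRD9, -0.978 for RBM18 and 0.977 for BUB1B. The groups fell into 2 separate sets for COASY, which sets most of such an r, and the events share libraries. The paired acceptors were 72 nt apart in DVL2, 20 nt in PGBD1, 10 nt in BRD9, 10 nt in RBM18 and 15 nt in BUB1B, whereas COASY exon 2 is a whole exon.

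For BRD9, a subunit of the non-canonical BAF chromatin remodelling complex, use of the upstream acceptor was 97.2%, 95.75% and 96.5% in K700E with sgSUGP1, sgGPATCH8 and sgRenilla, and 96.75%, 41.5% and 32.5% in WT with the same guides. In 293T cells it was 96.75% with sgSUGP1, 35.5% with sgGPATCH8 and 38.5% with sgRenilla. Inclusion of COASY exon 2 did not pass 47% in any library, but it is a skipped-exon value and that of BRD9 an acceptor value. Use of the COASY exon 2 acceptor reached 82%, so the levels of the 2 genes are not compared like for like. In SRSF2 P95H sgGPATCH8, where COASY had 15.3%, BRD9 stood at 51%, beside 36.3% in P95H sgRenilla, 39% in WT sgGPATCH8 and 45% in WT sgRenilla. For DVL2, a Dishevelled protein of Wnt signalling, use of the upstream acceptor was 59.25%, 63.75% and 67% in K700E with sgSUGP1, sgGPATCH8 and sgRenilla, and 61.25%, 92.75% and 95.5% in WT with the same guides.

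**Figure D5:**
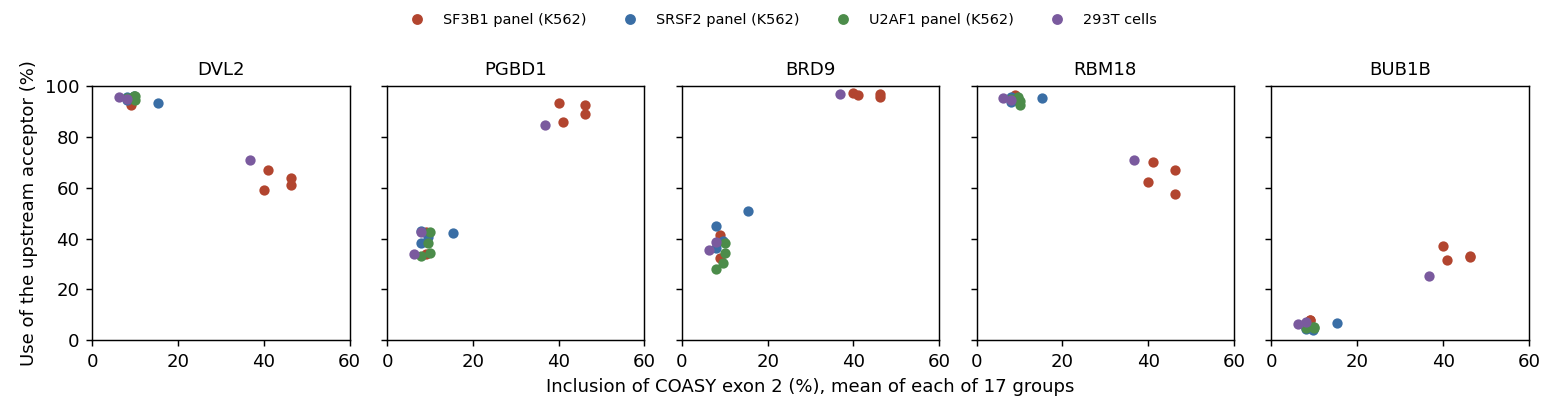
Use of the upstream acceptor (percent, y axis) of the 5 most similar genes against inclusion of COASY exon 2 (percent, x axis); each point is the mean of 1 of 17 groups, coloured by panel. In each plot the 5 groups with COASY inclusion of 36.75% or more stand apart from the other 12, lower for DVL2 and RBM18 and higher for PGBD1, BRD9 and BUB1B.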

How the data were processed

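The values are fractions deposited by the authors (0 to 1, 2 decimals, hg19), each the share of an event's first isoform among its isoforms, with each panel in a table of its own. The submitters' processing notes name RSEM 1.2.4, TopHat2 2.0.8b, TopHat and Bowtie. What each tool did, and how reads became fractions, is not given in the sources used here. Libraries were polyadenylated, strand-specific (dUTP) and paired-end, per the labels' protocols. Read depth is unknown, so no interval or floor that needs it is given.

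In the SF3B1 panel the fractions of both runs of a library were averaged; whether these are repeat runs of 1 library is not settled. In the 293T panel the guides of a target were weighted equally; the labels' names WT-1 and WT-2 could not be tied to guides, and sgRenilla is labelled WT-1 only. In the SRSF2 panel, replicate 3 of P95H sgGPATCH8 was sequenced in 2 runs and has 1 column.

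Events with a value in every library, some group mean of at least 5% and some of at most 95% were tested with limma 3.58.1 (trended prior, in R 4.3.3 with the data.table package at 1.17.8) on the log2 ratio of fractions with 0.01 added to each side, 1 mean per group (per guide in 293T). P-values were adjusted over all tested events (Benjamini-Hochberg). The scripts were tested on simulated data. Event names came from intron lengths matched to GENCODE 29 (103219 of 110816 events). Members, lists and comparisons were chosen with earlier results of these data known. The genes named as most alike were the 5 with the highest absolute r. Alternatives were another offset, no limits, missing values, untransformed fractions, single runs or guides, a replicate block and leaving out each library in turn. No fit left out the only library of a compared group. The labels do not say that replicate numbers pair samples. In the SF3B1 panel, however, same-numbered libraries of a target carried the same guide in both genotypes, so its replicate block is a block of guides. Every same-numbered pair deviated together (r over 0.1) in the U2AF1 panel for S34F and WT with sgRenilla (r 0.152 to 0.402) and for sgGPATCH8 and sgRenilla in WT cells (r 0.123 to 0.357). Blocked counts are given for these comparisons. In the U2AF1 panel replicates 2 and 3 of different groups also deviated together, such as r 0.125 for WT sgRenilla replicate 2 and S34F sgRenilla replicate 3. For replicate 1 with either, r was negative.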

Additional observations from a re-analysis of the deposited data

Results flagged for a closer look

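Groups of 4 libraries were searched for a library far from the other 3, and 4 of 10 such group and event pairs had one, where chance gives about 5% of groups. All 4 are in 293T cells and concern values given in whole percents, so a gap of 1 or 2 points was enough. After exon 2, use of the acceptor of exon 3 was 98% in 1 sgSUGP1 library and 98% in 1 sgGPATCH8 library, apart from the other 3 of each group. Use of the upstream acceptor of exon 7 was 97% in 1 sgSUGP1 library. Splicing of the intron after exon 2 was 6% in 1 sgGPATCH8 library, against 4% in the other 3.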

How the results depend on the processing

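Of 427 alternative counts of called COASY events, 350 stayed within 1.5 times the count reported, 73 were lower and 4 higher. The 350 include counts of 0 that stayed at 0, and most comparisons had a reported count of 0. All 73 lower counts came from comparisons with a called COASY event, so calls held less often than 350 of 427. None of the differences that were called changed direction. In several alternative settings few or no events of any gene were called. With the block, 0 of 50823 events were called in each SF3B1 panel comparison with a called COASY event. For K700E against WT with sgGPATCH8, run 1 alone gave 6 called events, in place of 346. For sgSUGP1 against sgRenilla in WT cells, either run alone gave 0, in place of 10. Events were still called with the block in the SRSF2 panel, and with either run alone for K700E averaged over guides. The COASY counts that moved were as follows. For K700E against WT averaged over guides (2 events), the count was 0 with the replicate block (adjusted p 0.0771, limma, for inclusion of exon 2), 1 with run 1 alone, 1 with run 2 alone and 1 to 2 without 1 library. With sgGPATCH8 (2 events) it was 0 with the block, 0 with run 1 alone, 1 with run 2 alone and 0 to 2 without 1 library. With sgRenilla (0 events) it was 1 with no limits on group means and 1 where both runs had to have a value, a setting chosen after seeing the data. For sgSUGP1 against sgRenilla in WT cells (1 event) it was 0 with a missing value allowed, 0 with the block, 0 with either run alone and 0 to 1 without 1 library. Against sgGPATCH8 in WT cells (2 events) it was 1 with a missing value allowed, 1 with no limits, 0 with the block, 0 with run 1 alone, 1 with run 2 alone and 0 to 2 without 1 library. The interaction of K700E and sgSUGP1 (0 events) had 1 with no limits. For P95H against WT with sgGPATCH8 (2 events) it was 1 with a missing value allowed, 1 with no limits, 0 with the block and 0 to 2 without 1 library. In 293T, sgSUGP1 against sgRenilla (1 event) had 0 with guide 3 or guide 4 alone, 0 with the block and 0 without any 1 library, and sgSUGP1 against sgGPATCH8 (1 event) had 2 with no limits. Of single events, 2 differences changed sign, both with run 1 alone: inclusion of exon 2 in K700E against WT with sgSUGP1 was 5 points (adjusted p 0.739), against -6.25, and in sgSUGP1 against sgGPATCH8 in K700E it was 4 points (adjusted p 0.768), against -6.25. The cause was not tested. Same-numbered samples did not deviate together in 3 panels, the SF3B1 panel (r 0.01 to 0.018), the SRSF2 panel (-0.048 to 0.033) and 293T (-0.025 to 0.012). A changed count with the block is no sign there that such samples deviate together. In the SF3B1 panel the block stands for the guide, which same-numbered libraries of a target shared. In the U2AF1 panel r was positive for all same-numbered pairs (0.075 to 0.402). For differently numbered pairs it ran from -0.243 to 0.131, negative with replicate 1 and positive between replicates 2 and 3. In the comparisons where some pairs were under 0.1, the block raised the count of all events called to 378 in place of 10 (S34F against WT with sgGPATCH8) and to 32 in place of 15 (sgGPATCH8 against sgRenilla in S34F cells). With the block, 0 COASY events were called in any U2AF1 comparison. The unknown depth limits every value, and single sgRenilla libraries limit the SF3B1 panel.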
